A study of Mus musculus with 8 samples.

Results

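Mouse embryonic stem (ES) cells at day 4 of differentiation were compared with undifferentiated cells on 8 microarrays, which are all 8 arrays of the series. The day 4 group held 2 arrays and the undifferentiated cells 6, in 3 groups of 2, and the groups were taken from the sample titles. The undifferentiated groups were J1 ES cells with a control short hairpin RNA (shControl) and J1 ES cells with either of 2 hairpins against Fbxl19, called Fbxl19 shRNA1 and Fbxl19 shRNA2. Fbxl19 encodes an F-box protein that binds CpG islands, and the study asked what its loss does to the transcriptome of ES cells. The labels do not say how differentiation was started, nor whether the day 4 cells carried a hairpin, and they give the same culture medium, with 1000 U/ml of leukaemia inhibitory factor (LIF) and 20% serum, for all 4 groups. Nothing in them tells if the 2 arrays of a group stem from different cultures, so a p-value covers array-to-array spread, which may be technical. A hairpin lowers a transcript rather than deleting its gene, and Fbxl19 itself was not analysed here, so the knockdown was not checked. Genes were sought that set day 4 apart from each of the 3 undifferentiated groups and not from shControl alone.

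Mouse ES cells kept with LIF and serum hold the naive state of the early epiblast. LIF acts through the receptor subunits LIFR and gp130 on the transcription factor STAT3, which drives Socs3, its own feedback inhibitor, and naive factors such as Klf4. When ES cells leave this state they first pass through a formative and then a primed stage, marked by Pou3f1, Otx2 and Fgf5, in which Pou5f1 (OCT4) is kept, and only later do they enter a germ layer.

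Each value is a log2 expression level on a scale where 1 unit is a 2-fold difference, for 1 probe set per gene, and levels of different genes are not comparable because each probe set has its own affinity. A change is the mean of the 2 day 4 arrays minus the mean of the 3 undifferentiated group means, with its standard error (SE), tested with limma and Benjamini-Hochberg adjustment over all 12393 genes; rose and fell are used of genes with an adjusted p under 0.05. A gene is called separating if it passed that threshold in the same direction against each of the 3 undifferentiated groups and both day 4 arrays lay beyond all 6 undifferentiated arrays. These 3 comparisons share the day 4 arrays and so are not independent of each other. For separating genes, a lack of overlap between day 4 and undifferentiated arrays is fixed by this definition and is no further result. A level under 3.79, the lowest lower quartile of any array, is called dim, and the size of a change from or to such a level is uncertain. Across genes, arrays of undifferentiated cells correlated at r of 0.992 to 0.997 with each other and at 0.971 to 0.975 with the day 4 arrays, while the day 4 arrays correlated at 0.989. Replicate 2 of shControl had a distribution of values unlike the others, with quartiles of 3.79, 5.81 and 8.18; its part in the results is given by leaving it out. The actin probe sets at the 3′ end read 0.73 and 0.65 above those at the 5′ end on day 4. They read 0.60 and 0.54 above in shControl and 0.70 to 0.76 above in the hairpin groups. On this sign of RNA quality day 4 lay within the range of the undifferentiated arrays, but both shControl arrays lay below all others. Of the 11 measured housekeeping genes, 0 passed the limma test and 1, Gusb, had an unadjusted p under 0.05 (adjusted p = 0.053). Gusb was called without day 4 replicate 1 and under 6 of the other alternatives, and the median change of all genes was -0.0014.

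Day 4 differed from the mean of the undifferentiated groups at 2825 genes, 22.8% of those tested, of which 1326 (10.7%) were higher and 1499 (12.1%) lower. Against shControl 2033 genes (16.4%) passed, 7.67% higher and 8.73% lower. Against Fbxl19 shRNA1 these were 2152 genes (17.4%), 8.45% higher and 8.92% lower, and against Fbxl19 shRNA2 2023 (16.3%), 7.61% higher and 8.71% lower. The separating genes numbered 1418, or 11.4%, with 681 higher (5.50%) and 737 lower (5.95%). These shares are the background for the separating members counted in each list below. Among the separating genes, the smallest of the 3 differences reached 2-fold for 354 genes that were higher and 320 that were lower, and 8-fold for 28 and 26. The median of that smallest difference was 1.03 for the higher and -0.91 for the lower genes, against a median range of 0.47 over the 6 undifferentiated arrays for the separating genes. All arrays of day 4 lay beyond all undifferentiated arrays for 3985 genes (32.2%; 15.0% above and 17.1% below), many of which did not pass the tests. The count of separating genes depended on the arrays used: it was 1521 without replicate 1 and 1752 without replicate 2 of day 4, 891 without replicate 1 and 858 without replicate 2 of Fbxl19 shRNA1, and 894 and 860 without those of Fbxl19 shRNA2. Without replicate 2 of shControl 2573 genes differed from the mean and 956 separated, and 1102 differed from shControl. With a minimum change of 1.5-fold built into the test, 403 genes separated.

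Separating genes were ranked by the smallest of their 3 differences from the undifferentiated groups, and the 12 at the head of each direction are given first. The largest falls so ranked included the LIF target Socs3, the naive factor Klf4 and the activin subunit Inhbb. Socs3, which blocks the kinase that activates STAT3, stood at 10.86 and 10.30 in shControl, 11.05 and 11.27 in Fbxl19 shRNA1, 10.87 and 11.33 in Fbxl19 shRNA2 and 5.51 and 6.15 on day 4. It fell by 5.12 ± 0.22 (adjusted p = 1.4e-06), 34.7-fold, and its other probe sets, which were not tested, differed by -4.26 and -5.27. Klf4, a Kruppel-like factor of the naive network, stood at 11.19 and 10.81 in shControl, 10.65 and 10.74 in Fbxl19 shRNA1, 10.65 and 11.04 in Fbxl19 shRNA2 and 7.13 and 5.75 on day 4, a fall of 4.40 ± 0.30 (adjusted p = 1.7e-05). Both genes were low on both day 4 arrays and high on all 6 others, a lack of overlap that the definition of separating fixes. The day 4 arrays differed from each other by more for Klf4 than for Socs3. Inhbb, which encodes the beta B subunit of activin and inhibin, had the largest fall by this rank, from 8.96, 9.31 and 9.95 as lowest, median and highest undifferentiated level to 3.78 and 3.26, but the second probe set of the gene differed by -0.56 and day 4 was dim. Mras, a Ras family GTPase, went from between 8.51 and 9.24 in undifferentiated cells to 4.26 and 3.80. Bcl3, a nuclear member of the IkappaB family that is also a STAT3 target, went from between 7.84 and 8.31 to 4.25 and 4.17. Morc1, a germline repressor of transposons, fell by 3.84 ± 0.12, and Tcl1, a coactivator of the kinase AKT, fell by 3.80 ± 0.35. Pcolce, which enhances procollagen cleavage, fell by 3.997 ± 0.17, and the protease inhibitor A2m fell by 4.16 ± 0.22. The other 3 of the 12 falls ranked first were Emp1, an epithelial membrane protein that became dim on day 4, Calml4, a calmodulin-like protein, and the nuclear receptor Esrrb, which is described with the naive factors.

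The largest rises by the same rank joined an iron exporter, a carbonic anhydrase, a guanylate-binding protein and an actin-binding protein. Slc40a1 (ferroportin), through which cells export iron, had undifferentiated levels of 3.93, 4.01 and 4.22 as lowest, median and highest and day 4 levels of 9.53 and 8.49, a rise of 4.98 ± 0.23 (adjusted p = 2.5e-06). Car4, a carbonic anhydrase held at the cell surface, went from 3.75, 3.95 and 4.08 to 7.66 and 9.71. Tagln (transgelin), an actin-binding protein of contractile cells, went from 4.89, 5.09 and 5.26 to 10.16 and 9.19, and Gbp2b, an interferon-inducible GTPase, from 3.52, 3.91 and 4.37 to 8.76 and 8.68. Undifferentiated levels of these 4 genes were low on every array, and both day 4 arrays lay far above the highest of them. Gbp2b was dim in shControl. Irs1, the insulin receptor substrate, rose by 4.25 ± 0.22, and Pim2, a serine/threonine kinase, rose by 3.92 ± 0.25 from a median of 6.63 to 10.02 and 11.09. Prom1 (CD133), a protein of membrane protrusions, rose by 3.79 ± 0.19, and the zinc finger factor Sall2 rose by 3.86 ± 0.28. Tmem54, the protocadherin Pcdh8, the extracellular matrix protein Efemp1 and the heparan sulfate sulfotransferase Hs6st2 were dim in 2 or 3 undifferentiated groups and reached 6.69 to 8.01 on day 4. For Hs6st2 the other probe sets, dim in undifferentiated cells, changed by 0.99 and -0.05.

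**Figure D1:**
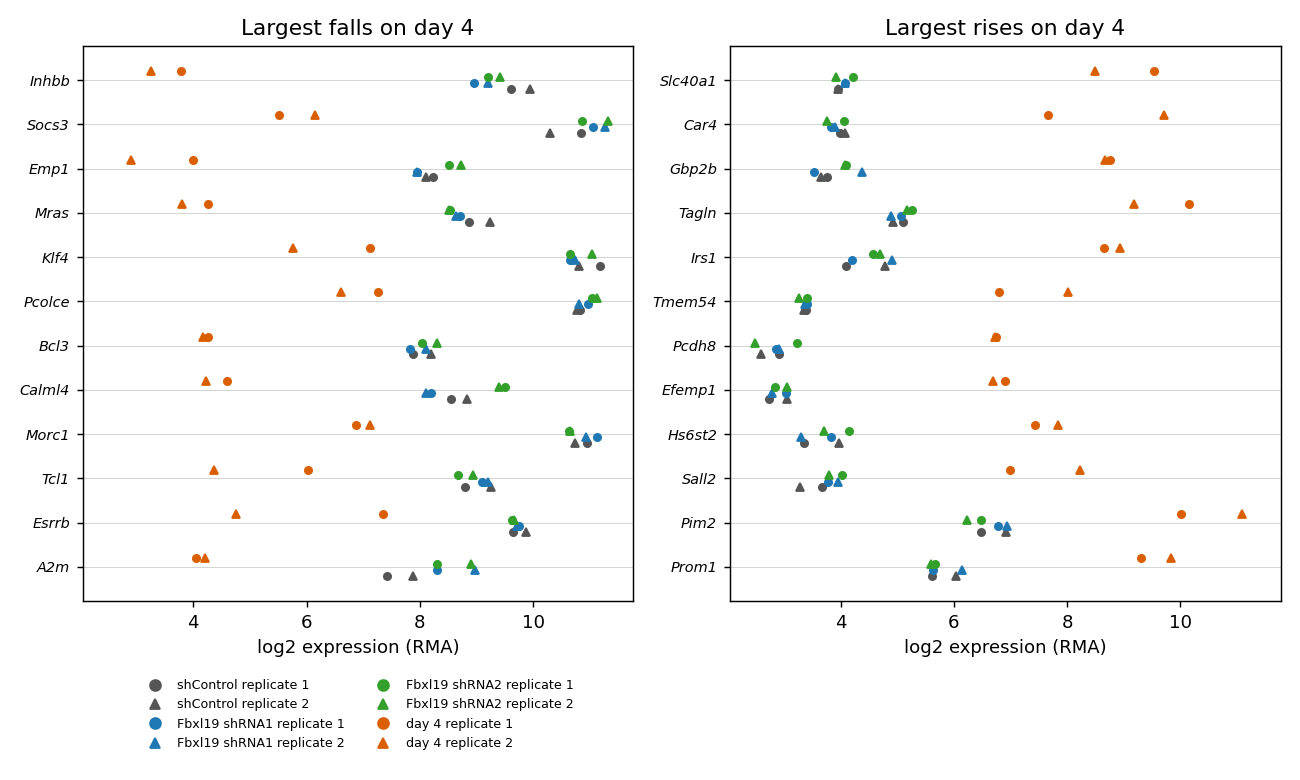
Levels (log2, RMA) of the separating genes with the 12 largest falls (left) and 12 largest rises (right), ranked by the smallest of the 3 differences from the undifferentiated groups, 1 point for each array, with circles for replicate 1 and triangles for replicate 2. By the rule that chose the genes, the orange day 4 points lie apart from all 6 undifferentiated points for every gene. The 2 day 4 points lie far apart for Esrrb and Car4.

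The naive transcription network fell as a whole. Of 17 measured naive factors, 17 fell and 16 of these separated day 4 from every undifferentiated group, with a median change of -2.64 beside -0.0014 over all genes and 12.1% of all genes called lower. Esrrb, an orphan nuclear receptor of the naive network, went from 9.62, 9.69 and 9.87 as lowest, median and highest to 7.35 and 4.76 (change -3.66 ± 0.51, adjusted p = 0.001), and its second probe set differed by -1.51. Tfcp2l1, a direct STAT3 target, went from between 10.41 and 10.79 to 8.35 and 6.04, and Gbx2, a homeobox factor under LIF control, from between 7.47 and 8.84 to 4.57 and 4.81. The naive factors thus did not fall equally on both day 4 arrays: Gbx2 was about as low on each, while Esrrb and Tfcp2l1 were lower on replicate 2. Zfp42 (REX1), a common reporter gene of the naive state, fell by 2.80 ± 0.37, Nr0b1 (DAX1) fell by 2.67 ± 0.43, Tbx3 fell by 2.64 ± 0.51 and Klf2 fell by 2.25 ± 0.33. Nanog, which stabilises self-renewal, fell by 1.71 ± 0.11, less than these, to 9.88 and 9.94 from between 11.54 and 11.70, with little spread on either side. Klf5 was the member that did not separate: it fell by 1.94 ± 0.50 (adjusted p = 0.022), with 9.77 and 7.25 on day 4, its call was lost without either shControl array, and a second probe set changed by -0.16. The second Tbx3 probe set, with a low mean of 4.66 in undifferentiated cells, changed by 0.15. Other Tfcp2l1 probe sets changed by 0.05 and -0.01 but were dim in undifferentiated cells (2.51 and 2.61), so they could not show a fall. The median of the 17 genes, relative to the undifferentiated mean, was -1.87 on replicate 1 and -3.47 on replicate 2 of day 4, against -0.08 to 0.14 on the undifferentiated arrays. In bulk RNA, fewer cells that express a gene and less RNA per cell cannot be told apart.

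**Figure D2:**
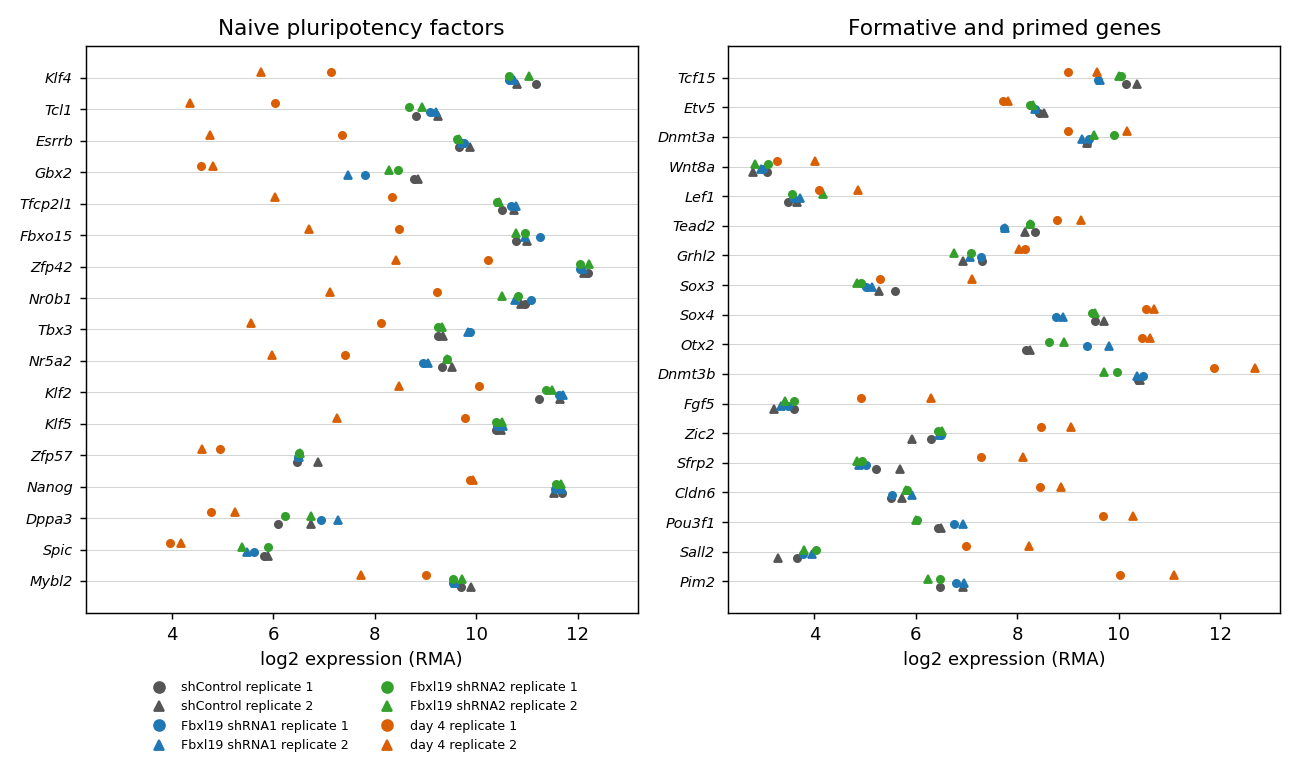
Levels (log2, RMA) of the 17 measured naive factors (left) and 18 formative and primed genes (right), ordered by change, 1 point for each array. Day 4 (orange) lies below the undifferentiated arrays for all naive factors, with replicate 2 (triangle) the lower for 13 of the 17, and above them for most formative genes.

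Genes of the LIF pathway fell with the naive factors. Of 20 measured genes, 14 fell, 10 of them separating, and 1 rose, with a median change of -1.19. Over all genes 12.1% fell and 10.7% rose. Klf4, Gbx2, Tfcp2l1 and Klf5 stand on both lists. The falls reached the receptor and the transducer: Lifr, the LIF receptor, fell by 1.20 ± 0.18 and Stat3 fell by 2.34 ± 0.12, from between 7.79 and 8.14 to 5.81 and 5.53, although 1 of the 3 Stat3 probe sets changed by only -0.08. Icam1, an adhesion molecule and STAT target, fell by 3.06 ± 0.15. Myc, also a target of LIF, was the gene that rose, by 0.51 ± 0.14, to 8.96 and 8.96 from between 7.96 and 8.85, and its call was lost when either shControl array, either day 4 array or replicate 2 of either hairpin group was left out. The list's median was -0.90 on day 4 replicate 1 and -1.47 on replicate 2. 

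The Socs3 promoter is shown because this STAT3 target had the largest fall of the LIF list. It covers 250 bases before to 50 after the start on the minus strand of chr11:117969317-117969616 (RefSeq, GRCm38.p6), and capitals mark the STAT element TTCNNNGAA, searched on both strands.
Socs3: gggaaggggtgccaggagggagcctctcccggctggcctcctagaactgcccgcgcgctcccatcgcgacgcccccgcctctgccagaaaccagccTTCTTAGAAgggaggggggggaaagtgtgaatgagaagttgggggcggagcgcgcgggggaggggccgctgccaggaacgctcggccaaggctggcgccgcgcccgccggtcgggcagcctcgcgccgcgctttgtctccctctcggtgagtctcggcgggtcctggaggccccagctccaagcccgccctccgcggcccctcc
The element lay in the window of 2 of the 10 separating genes of the list that were lower, Socs3 and Icam1, and in that of 9.55% of all 27025 genes with a promoter in the table. A match of letters is a description and not a binding site. Since the list was chosen as LIF and STAT3 response genes, its share says nothing of day 4.

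The core pluripotency genes changed far less. Pou5f1, the POU factor that both naive and primed cells need, stood at 12.31 and 12.57 in shControl, 12.41 and 12.44 in Fbxl19 shRNA1, 12.42 and 12.49 in Fbxl19 shRNA2 and 12.15 and 12.23 on day 4, a difference of -0.25 ± 0.11 (adjusted p = 0.16). Sox2, its partner, differed by -0.54 ± 0.21 (adjusted p = 0.1) and Sall4 by 0.08 ± 0.11 (adjusted p = 0.71), and neither passed the test. Without day 4 replicate 1 Sox2 differed by -0.82 and was called (adjusted p = 0.035). The difference for Pou5f1 was thus small beside the falls of the naive factors on the same arrays. Of 15 measured core genes, 8 fell and 1 rose, beside 12.1% and 10.7% of all genes, with a median of -0.46. Zfp296, a zinc finger partner of KLF4, fell by 2.03 ± 0.14, the largest change, and Tdgf1 (Cripto), the Nodal co-receptor, fell by 0.93 ± 0.18. Lin28a, which binds let-7 precursors and is known to increase in primed cells, was the gene that rose, by 1.02 ± 0.14, from between 8.69 and 9.20 to 10.16 and 9.86.

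Formative and primed genes rose as the naive factors fell. Of 18 measured genes, 14 rose, 12 of them separating, and 2 fell, with a median of 1.49 beside 10.7% of all genes called higher. Pou3f1 (OCT6), a POU factor of the formative epiblast, stood at 6.43 and 6.49 in shControl, 6.75 and 6.92 in Fbxl19 shRNA1, 6.02 and 5.999 in Fbxl19 shRNA2 and 9.69 and 10.28 on day 4. It rose by 3.55 ± 0.15 (adjusted p = 1.6e-06), 11.8-fold, and its second probe set differed by 2.50. Levels in the hairpin groups thus lay on both sides of shControl. Both day 4 arrays were above all 6 undifferentiated arrays, as for 15.0% of all genes. Otx2, a homeobox factor that drives the exit from the naive state, stood at 8.17 and 8.26 in shControl but 9.38 and 9.81 in Fbxl19 shRNA1 and 8.63 and 8.92 in Fbxl19 shRNA2, against 10.45 and 10.62 on day 4. Its rise of 1.67 ± 0.15 over the undifferentiated mean was taken over unlike undifferentiated levels, with day 4 above each group. Zic2, a zinc finger factor of the primed epiblast, rose by 2.40 ± 0.17, and Cldn6, a tight junction claudin, rose by 2.94 ± 0.15. Fgf5, the classical epiblast growth factor, was dim in the 3 undifferentiated groups (3.21 to 3.60) and reached 4.91 and 6.30. Dnmt3b, a de novo DNA methyltransferase, rose by 2.07 ± 0.20, to 11.87 and 12.69 from between 9.71 and 10.48. For Dnmt3a the probe set used differed by 0.11 ± 0.26 (adjusted p = 0.85), while its 4 other probe sets differed by 0.55 to 0.88, so its change depends on the probe set. It also depends on the day 4 array, at 0.69 without replicate 1 (adjusted p = 0.019). The list's median was 1.35 on replicate 1 and 1.87 on replicate 2 of day 4.

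Some genes of the next stage, the primitive streak, rose. Of 16 measured streak and mesendoderm genes, 5 rose, 4 of them separating, and 1 fell, beside 10.7% and 12.1% of all genes, and the median was 0.24. Eomes, a T-box factor of the streak and its descendants, went from 5.32, 5.76 and 6.14 as lowest, median and highest to 7.87 and 9.21 (change 2.82 ± 0.35, adjusted p = 0.00051). Sp5, a Wnt target, rose by 1.88 ± 0.22, and Evx1, a homeobox factor of the posterior streak, rose by 1.78 ± 0.17. These genes were higher on replicate 2 than on replicate 1 of day 4, as were 13 of the 16. Fgf8 differed most: it stood at 3.61 and 6.54 on the day 4 arrays, with 3.04 to 3.70 in undifferentiated cells, and did not pass the test (adjusted p = 0.084), but was called without replicate 1 (adjusted p = 1.5e-05). Fgf17, another growth factor of the streak, went the other way and fell by 1.02 ± 0.15. Brachyury was not analysed here.

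Single markers of the germ layers changed. Of 17 measured mesoderm genes 1 rose and 3 fell, of 17 endoderm genes 2 rose and 1 fell, and of 17 early neural genes 4 rose and 2 fell, with medians of 0.01, -0.08 and 0.09, beside 22.8% of all genes called. Of 30 measured Hox genes, which pattern the trunk, 0 passed the limma test and 3 had an unadjusted p under 0.05; 2 passed without day 4 replicate 1 and 1 without shControl replicate 2, as did 1 under 4 of the other alternatives, and 15 were dim in all groups. The endoderm calls rested on few arrays: 0 genes passed without replicate 1 of Fbxl19 shRNA1 or either array of Fbxl19 shRNA2, 1 without replicate 1 of shControl or replicate 2 of day 4, and 2 without replicate 2 of shControl. Sox11, a SoxC factor also active outside the nervous system, was the early neural gene with the largest change, from 6.81, 6.92 and 7.04 as lowest, median and highest to 9.46 and 9.54 (change 2.57 ± 0.11). Lmo2, a blood and vessel cofactor, rose by 1.03 ± 0.18, while the endothelial adhesion molecule Pecam1, which ES cells express, fell by 1.27 ± 0.25. Among 17 trophoblast genes 4 rose and 2 fell: Tfap2a, an AP-2 factor, rose by 1.67 ± 0.22, and Tfap2c, another one that germ cells and ES cells also use, fell by 2.20 ± 0.30. Gata3 rose by 1.90 ± 0.47 but was at 5.95 and 3.61 on the day 4 arrays, and its call was lost without either shControl array.

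Markers of cells that could have been mixed in did not rise as lists. Of 12 fibroblast markers, which feeder cells would bring, 2 rose and 1 fell, beside 22.8% of all genes called, and their summed linear level was 263 and 260 on day 4 and 244 to 305 in undifferentiated cells; Lum, Postn, Fap and Col3a1 were dim in all 4 groups. The count of 3 became 1 without shControl replicate 1 or day 4 replicate 1, and 2 without shControl replicate 2, Fbxl19 shRNA1 replicate 2 or either Fbxl19 shRNA2 array. Of 12 blood markers, Laptm5, a lysosomal protein, fell by 3.86 ± 0.47 and Cd34 rose by 0.93 ± 0.19 from a dim level; Ptprc (CD45) and the globins Hbb-y and Hba-a1 were dim in all groups. The summed linear level of the blood markers was 419 and 295 on day 4 and 977 to 1945 in undifferentiated cells. This sum largely followed Laptm5, whose mean was 10.21 in undifferentiated cells and 6.35 on day 4. The median change of the 12 markers was 0.02, and 10 were not called, so they did not fall as a list.

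Keratins and junction genes of simple epithelia rose on day 4, while mesenchymal genes moved both ways. Among all genes 10.7% rose and 12.1% fell. Of 21 measured simple epithelial genes, 11 rose, 8 of them separating, and 2 fell, with a median of 0.62, which was 1.17 without both hairpin groups and 0.36 without shControl. Krt18, a keratin of simple epithelia, stood at 6.10 and 6.68 in shControl, 6.54 and 6.96 in Fbxl19 shRNA1, 6.60 and 6.90 in Fbxl19 shRNA2 and 10.12 and 9.72 on day 4, a rise of 3.29 ± 0.20 (adjusted p = 7.8e-06). Krt8, the keratin with which it pairs in filaments, went from 6.34, 6.85 and 7.08 as lowest, median and highest to 10.13 and 9.27. The claudin Cldn7 went from 5.57, 6.15 and 6.60 to 9.96 and 9.88 and the tight junction protein Ocln from 4.31, 4.60 and 4.98 to 7.14 and 6.89. The keratin pair and both junction proteins were chosen for the size of their changes. They lay above every undifferentiated array on both day 4 arrays, as did 15.0% of all genes. Esrp1, an epithelial splicing regulator, rose by 2.37 ± 0.16, and the adhesion molecule Epcam rose by 1.31 ± 0.16. Cdh1 (E-cadherin) rose by 0.67 ± 0.16, from between 9.91 and 10.75 to 11.10 and 11.20, but did not separate, and its call was lost without replicate 2 of day 4. Cdh2 (N-cadherin) also rose, by 2.50 ± 0.16, from between 4.85 and 5.49 to 7.61 and 7.78. Of 17 measured mesenchymal genes 4 rose and 4 fell: the intermediate filament Vim fell by 1.75 ± 0.12, fibronectin (Fn1) fell by 1.39 ± 0.25, the repressor Zeb1 fell by 2.03 ± 0.26 and the calcium-binding S100a6 fell by 2.47 ± 0.31.

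Contractile genes and targets of SRF and YAP rose. SRF is a transcription factor that binds CArG boxes and responds to actin dynamics, and YAP is the effector of the Hippo pathway. Of 22 measured genes, 16 rose, 15 of them separating, and 1 fell, with a median of 1.33. The shares of all genes called were 10.7% higher and 12.1% lower. Tagln had the largest rise, as given above. Myl9, a myosin light chain, went from 3.48, 3.77 and 4.05 as lowest, median and highest to 6.73 and 7.90. Its undifferentiated levels lay around the dim limit of 3.79, so the size of its rise is uncertain. Tpm1 (tropomyosin) went from 7.46, 7.60 and 7.73 to 9.94 and 10.01. Ccn1 and Ccn2, matricellular proteins and common YAP readouts, rose by 2.75 ± 0.27 and 2.75 ± 0.19. Thbs1 (thrombospondin) rose by 2.76 ± 0.36 and Cnn1 (calponin) rose by 2.13 ± 0.16, both from dim levels. The list's median was 1.62 on replicate 1 and 1.13 on replicate 2 of day 4, but its genes had no common order. Of the 22 genes, 14 were lower on replicate 2, while 11 lay farther from the undifferentiated mean there. Srf itself rose by 0.73 ± 0.15, from between 6.86 and 7.21 to 7.50 and 7.97, but its second probe set changed by 0.20. With both hairpin groups left out Srf differed by 0.67 and was not called (adjusted p = 0.12). Acta2, the smooth muscle actin, rose by 0.75 ± 0.22 with 6.20 and 5.42 on day 4 and 4.63 to 5.36 in undifferentiated cells; a second, dim probe set changed by -0.03, and the call was lost without shControl replicate 2, day 4 replicate 1 or any of the hairpin arrays.

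The Srf promoter is shown because SRF acts on its own gene and on the contractile genes. It lies on the minus strand of chr17:46556113-46556412 (RefSeq, GRCm38.p6), and capitals mark the matches to the CArG box, searched on both strands.
Srf: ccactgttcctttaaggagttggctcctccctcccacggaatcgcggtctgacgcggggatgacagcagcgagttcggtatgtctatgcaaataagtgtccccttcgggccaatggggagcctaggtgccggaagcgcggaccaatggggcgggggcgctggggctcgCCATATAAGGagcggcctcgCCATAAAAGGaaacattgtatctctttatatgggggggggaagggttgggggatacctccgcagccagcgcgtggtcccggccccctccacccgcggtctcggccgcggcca
A CArG box lay in the window of 4 of the 12 separating genes that were higher and have a promoter in the table (Cnn2, Myl9, Srf and Vcl), and in that of 1.81% of all genes there. Tagln, Ccn2 and Thbs1 were not searched. The list was chosen as SRF and YAP targets, so a share above that of all genes says nothing of day 4.

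Among signalling pathways, BMP targets rose while Bmp4 fell. Of 15 measured genes of the BMP list, 8 rose, 7 of them separating, and 1 fell, with a median of 0.48. Beside this, 10.7% of all genes rose and 12.1% fell. The ID genes encode inhibitors of helix-loop-helix factors and are direct BMP targets. Id1 went from 9.24, 9.52 and 9.95 as lowest, median and highest to 11.34 and 10.93, Id2 from 6.54, 7.08 and 7.45 to 10.14 and 9.60 and Id3 from 8.01, 8.34 and 8.72 to 9.82 and 10.31. Bmp4, the ligand, went the other way, from 9.04, 9.13 and 9.43 to 5.62 and 5.66, a fall of 3.54 ± 0.13 (adjusted p = 7.8e-07). These genes were chosen for the size of their changes. All 3 of these ID genes lay above every undifferentiated array, as did 15.0% of all genes. Bmp4 lay below every one, as did 17.1% of all genes. Msx2, a homeobox target of BMP, rose by 1.45 ± 0.14 from a dim level.

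**Figure D3:**
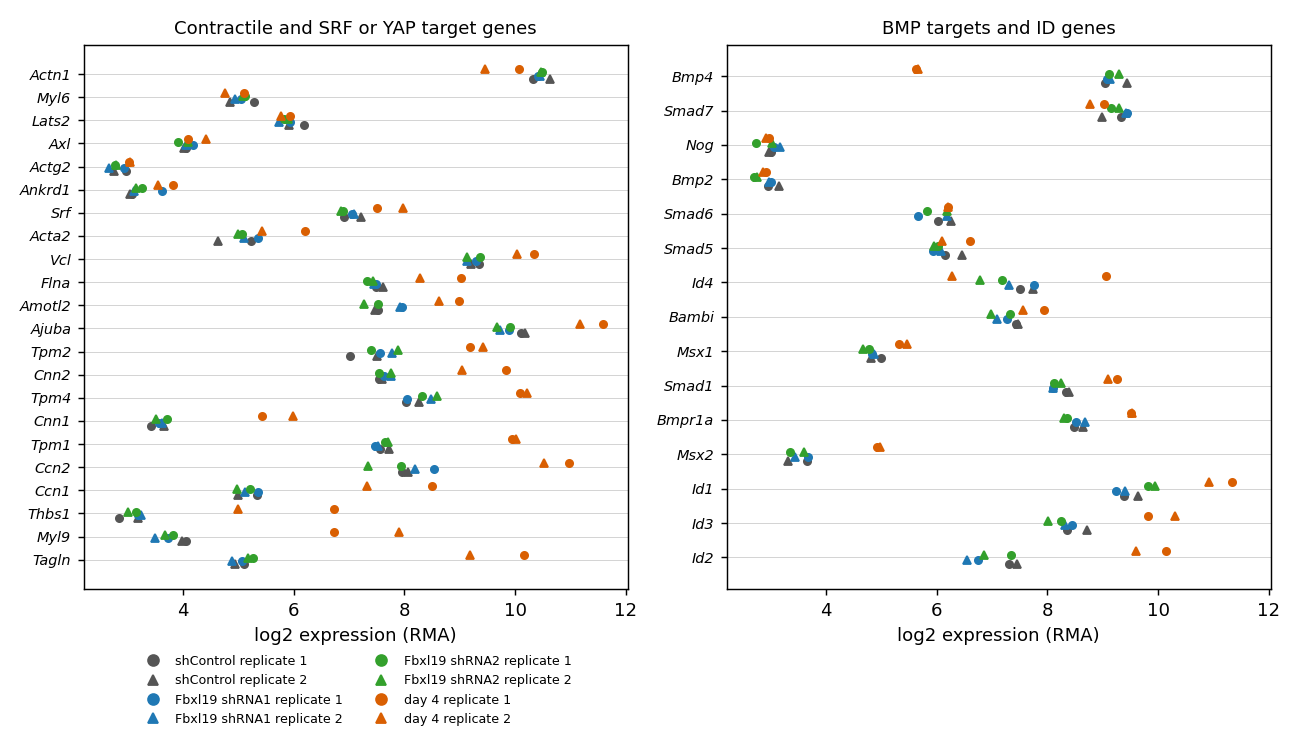
Levels (log2, RMA) of the 22 measured contractile and SRF or YAP target genes (left) and the 15 BMP genes (right), ordered by change, 1 point for each array. Day 4 (orange) lies above the undifferentiated arrays for most genes in the lower part of both panels, and Bmp4 is the gene of the right panel where day 4 lies far below.

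In the Nodal and activin pathway 5 of 14 measured genes rose and 2 fell, with a median of 0.24. This list and the FGF and Wnt lists that follow are read beside 10.7% of all genes that rose and 12.1% that fell. The ligand Nodal differed by 0.28 ± 0.16 (adjusted p = 0.29) and its inhibitor Lefty1 by -0.04 ± 0.27 (adjusted p = 0.95), and neither passed the test. Without day 4 replicate 1 Nodal differed by 0.59 and was called (adjusted p = 0.018). Fst (follistatin), which traps activin, went from 5.50, 5.85 and 6.21 as lowest, median and highest to 8.18 and 9.26, and Skil (SnoN), a SMAD repressor, rose by 1.37 ± 0.17. In the FGF and ERK list 5 of 16 rose and 7 fell, so the list did not move one way. The feedback inhibitors Dusp6 and Spry1 rose by 0.98 ± 0.11 and 1.09 ± 0.13, while the ETS factors Etv4 and Etv5 fell by 1.51 ± 0.18 and 0.60 ± 0.10. Ier3, an immediate early gene, fell by 1.87 ± 0.37 with a wide range in undifferentiated cells (7.29 to 9.25). In the Wnt list 8 of 22 rose and 4 fell, and the receptors moved apart: Fzd2 went from between 5.75 and 6.05 to 8.13 and 8.91 and Fzd5 from between 9.09 and 9.61 to 6.82 and 6.83. The secreted inhibitors also moved apart, since Sfrp2 rose by 2.60 ± 0.21 and Sfrp1 fell by 1.49 ± 0.15. Axin2, a general Wnt target, rose by 0.87 ± 0.23 with 6.29 and 7.34 on day 4, but the other probe set changed by 0.01 and the call was lost without day 4 replicate 2, either shControl array, Fbxl19 shRNA1 replicate 1 or Fbxl19 shRNA2 replicate 2.

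Genes of antigen presentation rose on day 4, while interferon-responsive genes split into a part that rose and a part that fell. Both lists are set beside 10.7% of all genes that rose and 12.1% that fell. Of 13 measured genes of MHC class I and antigen processing, 10 rose and 0 fell, 6 of them separating, with a median of 1.03; 7 passed without day 4 replicate 2 and 12 without replicate 1. B2m, the light chain of class I molecules, went from 7.73, 8.03 and 8.23 as lowest, median and highest to 10.005 and 9.37, and the heavy chain H2-K1 from 6.80, 7.16 and 7.37 to 8.22 and 8.88. Other probe sets of H2-K1 changed by 0.82, 1.02 and, on a dim one, 0.12. Psmb8, an immunoproteasome subunit, went from 3.57, 3.88 and 4.41 to 7.004 and 8.64, and Erap1, which trims peptides, from 3.59, 4.03 and 4.11 to 6.61 and 7.46. These 4 genes were chosen for the size of their changes. All were higher on both day 4 arrays than on any undifferentiated array, as were 15.0% of all genes. The immunoproteasome subunit Psmb9 rose by 1.08 ± 0.32 but stood at 5.98 and 7.45 on the day 4 arrays and was not called without replicate 2 of day 4, either array of shControl or Fbxl19 shRNA2, or replicate 1 of Fbxl19 shRNA1. The peptide transporter Tap1 rose by 0.86 ± 0.18 on 1 probe set, while the 3 others changed by -0.07 to 0.10. Of these others, those at 2.56 and 2.58 in undifferentiated cells were dim. Levels on replicate 2 exceeded those on replicate 1 for 12 of the 13 genes, and the list's median was 0.53 on replicate 1 and 1.41 on replicate 2, against -0.17 to 0.17 on undifferentiated arrays.

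In the interferon list 9 of 24 measured genes rose and 5 fell, 6 and 5 of them separating, with a median of 0.11. The guanylate-binding proteins Gbp2 and Gbp2b rose most, but from levels that were dim in part, so the size of these rises is uncertain. Gbp2 went from 3.21, 3.67 and 4.26 as lowest, median and highest to 7.62 and 7.67, and its undifferentiated mean of 3.69 was dim. Gbp2b, given above, was dim in shControl. Gbp3 rose by 1.70 ± 0.14 from a dim level, the immunity-related GTPase Irgm1 rose by 1.22 ± 0.19 and the tethering factor Bst2 rose by 1.62 ± 0.15. Oas1a, an oligoadenylate synthetase, went the other way, from 8.65, 8.96 and 9.27 to 6.52 and 7.10. The interferon-induced membrane proteins also fell, Ifitm1 by 1.96 ± 0.12, Ifitm2 by 1.57 ± 0.10 and Ifitm3 by 1.33 ± 0.24, as did Irf9, the DNA-binding subunit of the complex that type I interferon activates, by 1.81 ± 0.18. The 11 separating genes of the list therefore held both directions.

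The promoters of Gbp2, which rose, and Oas1a, which fell, are shown because both hold the interferon element, GAAA and GAAA parted by any 2 bases, marked by capitals and searched on both strands. They lie on the plus strand of chr3:142620413-142620712 and the minus strand of chr5:120907476-120907775 (RefSeq, GRCm38.p6).
Gbp2: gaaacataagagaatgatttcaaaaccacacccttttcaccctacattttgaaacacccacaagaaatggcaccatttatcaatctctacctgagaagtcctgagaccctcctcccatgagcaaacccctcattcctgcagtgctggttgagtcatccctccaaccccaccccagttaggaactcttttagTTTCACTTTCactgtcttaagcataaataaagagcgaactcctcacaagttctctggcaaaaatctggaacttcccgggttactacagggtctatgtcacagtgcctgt
Oas1a: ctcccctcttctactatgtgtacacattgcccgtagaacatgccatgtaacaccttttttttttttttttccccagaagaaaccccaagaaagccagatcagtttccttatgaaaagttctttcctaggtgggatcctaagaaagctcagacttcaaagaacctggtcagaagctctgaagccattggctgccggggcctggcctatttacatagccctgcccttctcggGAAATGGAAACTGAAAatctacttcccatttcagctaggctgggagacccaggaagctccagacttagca
The element lay in the window of 5 of the 6 separating interferon genes that were higher (Bst2, Gbp2, Gbp2b, Gbp3 and Irgm1) and of 3 of the 5 that were lower (Ifitm2, Ifitm3 and Oas1a), against 3.99% of all genes in the table. The element was thus present on both sides of the split. Because the list was chosen as interferon-responsive genes, a share above that of all genes says nothing of day 4. Among the 6 separating class I genes it lay in the windows of B2m and Erap1.

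**Figure D4:**
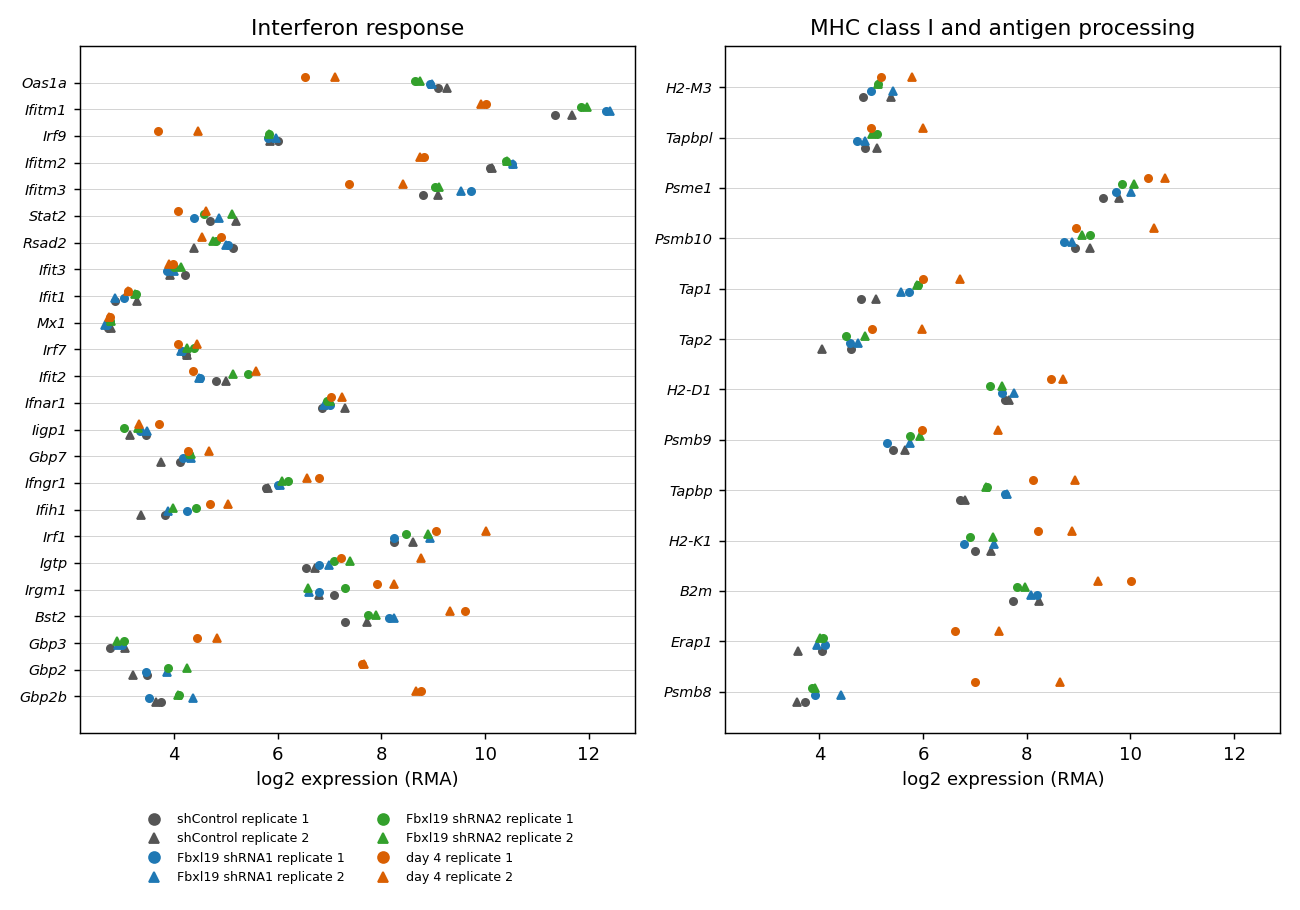
Levels (log2, RMA) of the 24 measured interferon-responsive genes (left) and 13 genes of MHC class I and antigen processing (right), ordered by change, 1 point for each array. Day 4 (orange) lies below the undifferentiated arrays from Oas1a to Ifitm3 and above them for the genes at the foot of both panels. Replicate 2 (triangle) exceeds replicate 1 of day 4 for 12 of the 13 class I genes.

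The DNA methylation machinery and germline genes also changed in part, beside 10.7% of all genes that rose and 12.1% that fell. Of 10 measured genes of the methylation list, 1 rose (Dnmt3b, above) and 5 fell, with a median of -0.42. Tet1, which oxidises methylcytosine, fell by 1.71 ± 0.18, from between 7.92 and 8.61 to 6.82 and 6.33, and Zfp57, which keeps imprints methylated, fell by 1.79 ± 0.14. Dnmt1, the maintenance methyltransferase, fell by 0.67 ± 0.19 with 9.39 and 9.95 on day 4, and its call was lost without day 4 replicate 1, shControl replicate 2, either Fbxl19 shRNA1 array or Fbxl19 shRNA2 replicate 2. Of 15 germline genes 2 rose and 6 fell, with a median of -0.50, which was -0.16 on replicate 1 and -0.93 on replicate 2 of day 4. Morc1 led the falls, as given above, followed by Dppa3 (Stella), which fell from between 6.08 and 7.28 to 4.77 and 5.25, and the transposon repressor Tex19.1, which fell by 1.495 ± 0.21. Sycp3, of the synaptonemal complex, was the separating germline gene that rose, from 5.86, 6.24 and 6.48 as lowest, median and highest to 8.73 and 7.46.

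Cell cycle, metabolic and matrix genes were called in shares to be read beside the 22.8% of all genes called. Of 23 genes of mitosis and DNA replication 5 fell and 0 rose, with a median of -0.22; 1 was called without day 4 replicate 1 and 12 without replicate 2, 2 to 3 without any of the shControl and Fbxl19 shRNA2 arrays or replicate 2 of Fbxl19 shRNA1, and the list's median was -0.44 on replicate 1 and -0.06 on replicate 2. Mki67, the proliferation marker, fell by 1.51 ± 0.42 with 7.10 and 9.04 on day 4 and 9.02 to 9.96 in undifferentiated cells, so that replicate 2 overlapped the undifferentiated arrays, and the call was lost without day 4 replicate 1, either shControl array or replicate 2 of either hairpin group. Of 20 G1 regulators and Myc genes 4 rose and 3 fell: the cyclin Ccnd3 fell by 1.91 ± 0.12, from between 9.81 and 10.07 to 7.93 and 8.22, and Mycl rose by 1.62 ± 0.31. Of 21 glycolysis and hypoxia genes 5 fell and 0 rose, with a median of -0.07. The phosphofructokinase Pfkp fell by 2.26 ± 0.26 and the hexokinases Hk1 and Hk2 fell by 1.78 ± 0.16 and 0.82 ± 0.16. Other genes of this list varied among undifferentiated arrays, whose list medians ran from -0.47 to 0.50, and day 4 (-0.06 and -0.12) lay within that range. Of 15 genes of iron handling, 3 passed, and 5 without day 4 replicate 2, and Slc40a1 (above) was the separating one; the transferrin receptor Tfrc rose by 0.50 ± 0.11 on the probe set used, but its 2 others changed by -0.34 and -0.55 and the call was lost without day 4 replicate 2. Of 19 basement membrane and collagen genes 5 rose and 5 fell. The laminin chain Lama1 went from between 7.23 and 7.78 to 4.91 and 4.74 and nidogen (Nid1), which links laminin to collagen, from between 8.54 and 8.90 to 6.47 and 4.82, while the laminin chain Lamb1 rose by 1.08 ± 0.11.

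**Figure D5:**
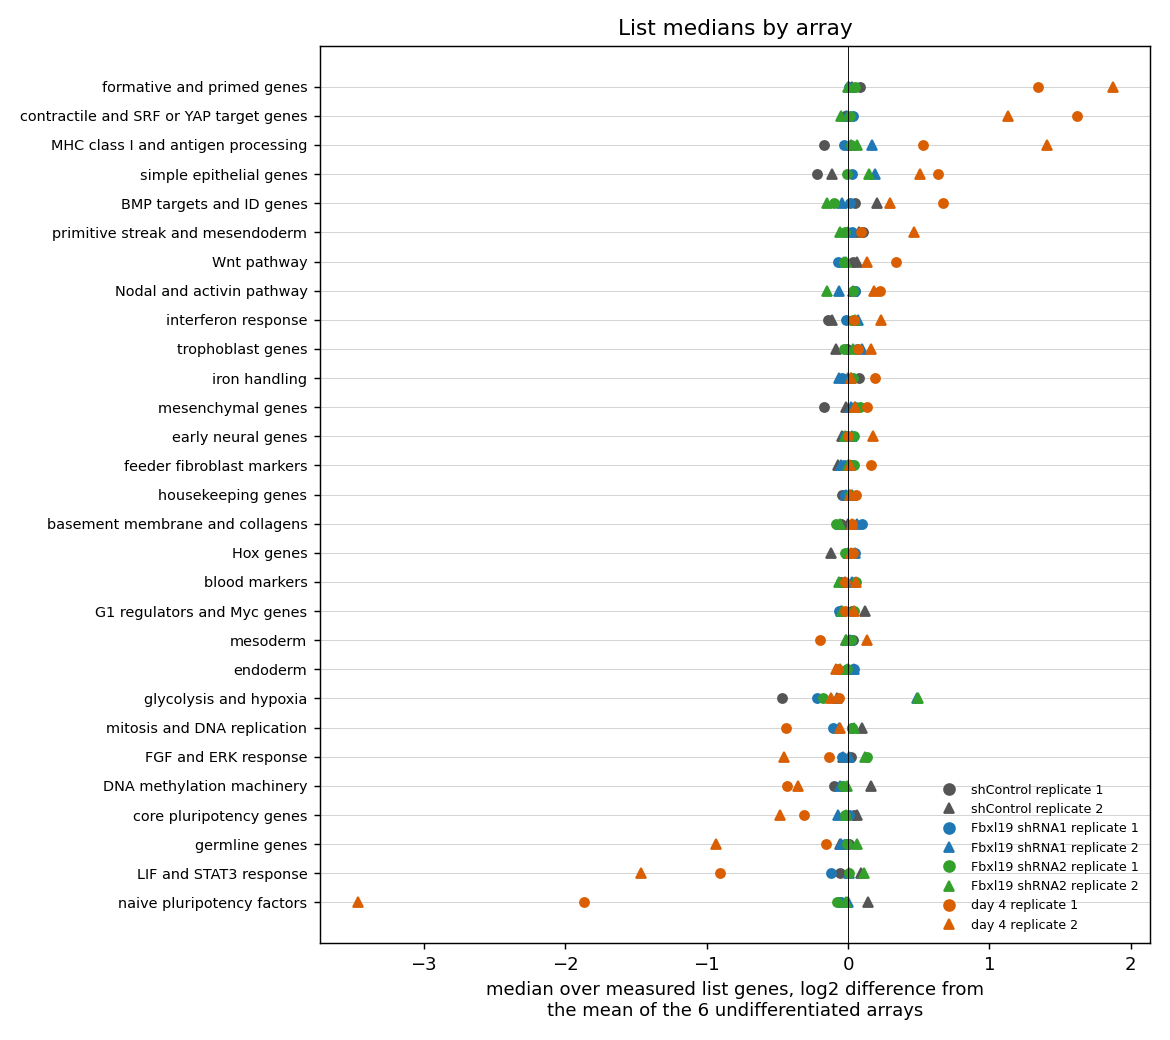
Median over the measured genes of each of 29 lists, as the log2 difference of an array from the mean of the 6 undifferentiated arrays, 1 point for each array. Day 4 (orange) lies apart from the other arrays for the naive, LIF, formative, contractile and class I lists, among others. The core pluripotency, simple epithelial and BMP lists are further examples. Replicates 1 and 2 of day 4 differ most for the naive factors (-1.87 and -3.47).

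The day 4 arrays differed from each other more than the other pairs did. The difference between replicates was at least 2-fold for 360 genes on day 4, of which 102 were separating, against 53 in shControl, 23 in Fbxl19 shRNA1 and 27 in Fbxl19 shRNA2, and its SD over genes was 0.41 against 0.31, 0.20 and 0.22. Replicate 2 was lower for Nupr1, a stress-induced chromatin protein (8.57 and 4.74 on replicates 1 and 2), Trib3, a pseudokinase of the stress response (9.59 and 6.17), and Niban1, another stress-inducible gene (8.83 and 5.43). It was also lower for the galectin Lgals3 (8.87 and 5.59) and the lipoprotein receptor Vldlr (6.47 and 3.42). Replicate 2 was higher for Fgf8 and Car4, given above, for the planar polarity gene Prickle1 (5.34 and 7.43), the neurofilament Nefh (4.83 and 6.80) and the aldo-keto reductase Akr1b8 (5.04 and 6.99). On replicate 2, 13 of 17 naive factors were lower, 17 of 18 formative and 13 of 16 streak genes higher and 19 of 23 genes of mitosis and replication higher, while over all genes 5757 were lower and 6627 higher. With 2 arrays, the data do not show which replicate is the more typical.

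A comparison with shControl alone would have named further genes. Of the 2033 genes that differed from shControl, 615 did not separate day 4 from every group, and for 101 the day 4 arrays overlapped at least 1 hairpin group (53 higher and 48 lower than shControl). Dcxr, a carbonyl reductase, stood at 6.53 and 6.85 in shControl, 8.37 and 8.14 in Fbxl19 shRNA1, 7.97 and 7.94 in Fbxl19 shRNA2 and 8.17 and 8.06 on day 4. Pmaip1 (NOXA), a proapoptotic BH3 protein, stood at 6.46 and 6.50, 7.95 and 8.37 and 7.13 and 7.22 in the same order and at 8.12 and 8.61 on day 4. Both were higher in Fbxl19 shRNA1 than in shControl (adjusted p = 0.011 for Dcxr and 0.013 for Pmaip1), and day 4 lay at the level of that hairpin group. The growth factor Fgf18 was lower on day 4 than in shControl but lower still in Fbxl19 shRNA1, with 4.73 and 4.29 there, 6.70 and 6.82 in shControl and 5.60 and 4.92 on day 4. The epithelial genes Krt7 and Dsp (desmoplakin) had one pattern: Krt7 stood at 3.81 and 3.15 in shControl, 4.89 and 4.86 and 4.32 and 5.05 in the hairpin groups and 4.85 and 4.86 on day 4, and Dsp at 4.97 and 5.77, 6.09 and 6.75, 6.16 and 6.55 and 6.68 and 6.66. Their differences between hairpin and control cells did not pass the test (adjusted p of 0.08 and 0.34 for Krt7 and 0.28 and 0.71 for Dsp). The interferon-inducible GTPase Igtp was the remaining gene of the 5 with the largest rises over shControl, at 7.21 and 8.76 on day 4; its change from the undifferentiated mean was not called with any array but day 4 replicate 1 left out. On the lower side the 5 were Nefh, Adipoq (dim on day 4), Fgf18, Serpinb9b and Tnfrsf22, with differences from shControl of -2.05, -1.76, -1.499, -1.01 and -1.001.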

How the data were processed

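RNA was hybridised to Affymetrix mouse 430A 2.0 arrays, per the series' design text. The deposited table holds the authors' log2 values for 22690 probe sets on 8 arrays, summarised by RMA per the submitters' processing notes; whether the arrays were normalized together is not given in the sources used here. RMA includes quantile normalization, which equalises the arrays' distributions and can hide a global shift. The values carry no detection call and no measure of depth, and precision is limited by 2 arrays per group. The labels' free text names other F-box genes for the later hairpin arrays; titles and source names were followed.

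Control probe sets were left out, and probe sets were named from the platform annotation, with symbols updated through RefSeq gene identifiers for 20351 of the 20380 with 1 gene. The 691 with several genes were not used. For each of 12393 genes the brightest probe set, by its mean over all 8 arrays, was kept. limma 3.58.1 in R 4.3.3 fitted 4 group means, with 4 residual degrees of freedom, and eBayes. Alternatives covered probe sets, filters, the variance prior, array weights, scaling, a minimum change, a replicate block, the groups used and leaving out each array. The fit was tested on simulated data. Promoter windows came from RefSeq on GRCm38.p6; no genome was used.

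Named genes were the 12 largest rises and falls among separating genes, ranked by the smallest of the 3 differences, the 4 largest called changes of each list, the 4 marker genes (Klf4, Socs3, Pou3f1 and Krt18), the 5 largest differences from shControl alone in each direction where day 4 overlapped a hairpin group, and the 5 largest differences between the day 4 arrays in each direction; 18 predicted separating genes were not named. Further list members were named after their values were seen. The comparison, genes and 29 lists were chosen with earlier results of these data known.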

Additional observations from a re-analysis of the deposited data

Results flagged for a closer look

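The 6 undifferentiated arrays were searched for a single array far from the others in each of 186 named genes, and 5 were found, where chance alone would flag about 1 in 20. Replicate 2 of shControl was the array concerned for Zic1 (2.84, the highest, next 2.54), Erap1 (3.59, the lowest, next 3.95) and Zfp57 (6.87, the highest, next 6.53). For Tmem54 it was replicate 2 of Fbxl19 shRNA2 (3.27, the lowest, next 3.36), and for Dnmt3a replicate 1 of Fbxl19 shRNA2 (9.91, the highest, next 9.51). The Zic1 and Tmem54 values are dim. Among these genes, Tmem54, Zic1, Erap1 and Zfp57 kept both day 4 arrays beyond every undifferentiated array, the flagged one included.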

How the results depend on the processing

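The count of genes called against the mean of the undifferentiated groups was 2825, and 1418 genes separated. With every probe set tested on its own, and counted as probe sets, these became 4363 and 2139, and 3210, 3261 and 3075 against shControl, Fbxl19 shRNA1 and Fbxl19 shRNA2. A minimum change of 1.5-fold gave 671, 403, 519, 590 and 518 in the same order. With both hairpin groups left out, 1145 genes were called, the same value against the mean and against shControl. Array weights gave 1191 against shControl. With 1 array left out, counts ran from 2159 to 2990 against the mean, from 858 to 1752 for separating genes, from 1102 (without shControl replicate 2) to 2628 against shControl, from 1041 to 2377 against Fbxl19 shRNA1 and from 953 to 2467 against Fbxl19 shRNA2. A group left with 1 array is assumed to vary like the others.

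The labels do not say that replicate numbers pair the arrays. Differences of replicate 2 from 1 correlated across genes at r of 0.23 to 0.50 between undifferentiated groups and at -0.08 to 0.07 between these and day 4. The replicate block gave 3092 called and 1563 separating genes.

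Over named genes and alternatives, 3210 values kept their call, 47 gained it, 253 lost it and 1 reversed: Tfrc at -0.13 with the mean of its probe sets. Averaging probe sets ended the calls of Klf5, Tap1, Acta2 and Axin2, a trended robust prior those of Klf5, Gata3, Mki67 and Igtp, and array weights those of Acta2, Igtp, Dcxr, Myc, Ier3, Dnmt1, Serpinb9b and Psmb9. The 6 undifferentiated arrays as 1 group ended those of Tap1, Pmaip1, Dcxr and Myc. Of 155 called named genes, 99 kept their call under every alternative. Sign changes of list medians were sought where the main median exceeded the SD between the list's 2 day 4 medians. Those found were of G1 and Myc genes (-0.030 with the mean of probe sets, -0.033 without shControl arrays, and -0.020 to 0.086 with 1 array left out), mesenchymal genes (-0.36 without the dimmest genes) and glycolysis (0.16 without both hairpin groups, and -0.16 to 0.069 with 1 array left out). Medians nearer 0 also changed sign, such as those of mesoderm (-0.20) and blood markers (-0.019) without day 4 replicate 2. The cause was not tested. The separating genes could not be fitted with the undifferentiated arrays as 1 group, and lists and named genes were not run on every probe set.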
